A study of Mus musculus with 14 samples.

Results

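The genes described here make, take up and export cholesterol. The list held 31 genes: 18 of synthesis, 4 of regulation, 4 of uptake and intracellular delivery, and 5 of efflux, storage and turnover. A gene was kept where a probe set named it alone in the array annotation, and where there were several, the one with the highest mean of the 14 arrays stood for it. This left 27 measured members among 17097 genes tested. Acat2 and Pmvk of synthesis, and Abca1 and Soat1 of efflux, had no such probe set and were not analysed here.

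The arrays came from whole hypothalami of mice aged 12 weeks on a mixed background of C57Bl/6J, FVB/N and 129. Knockout mice lacked Mfn1, which encodes a mitochondrial outer membrane fusion protein, in cells targeted as POMC neurons. The groups were knockout fasted for 16 h (n = 3), knockout fed at random (n = 4), control fasted for 16 h (n = 3) and control fed at random (n = 4). The labels do not give the alleles of the control mice, nor whether an array holds RNA of 1 mouse, so the spread behind each p-value is that of these samples and may be technical. POMC neurons are one of many hypothalamic cell types and the POMC promoter is also active in other cells, so whole tissue RNA dilutes a change within them. Mfn1 itself lay between 8.99 and 9.12 on all 14 arrays, with a knockout minus control difference of 0.01 ± 0.03 (log2, SE; limma, adjusted p = 0.999), and so does not check the genotype labels.

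The brain makes its own cholesterol, because plasma lipoproteins do not cross the blood-brain barrier. Oligodendrocytes use it for myelin, and astrocytes pass it to neurons on particles that carry apolipoprotein E. When sterols in the endoplasmic reticulum are low, the Scap protein escorts the transcription factor SREBP2, product of Srebf2, to the Golgi, where it is cut and released to the nucleus; when sterols are high, the Insig proteins hold the complex back. Excess cholesterol leaves through ABC transporters or, in neurons, after hydroxylation by Cyp46a1.

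The proximal promoters of these genes are shown because SREBP2 is known to act on them together with the factors NF-Y and SP1. RefSeq windows of 250 bases before to 50 bases after an annotated start (GRCm38.p6) were matched for 25 of the 31 listed genes, not for Npc1, Fdft1, Fdps, Sqle, Stard4 and Abcg1. They were searched on both strands. The NF-Y box CCAAT was present in 21 of the 25 listed genes, including 14 of 15 synthesis genes and 2 of 4 efflux genes. It occurred in 37.4% of all 32851 windows and in a window of 42.3% of the 13605 tested genes that have one. Of 44 matches, 26 began within 100 bases before the start, and these lay in 17 listed genes. Positions were not counted in the windows of other genes, so this placing is not shown to be particular to the list. The sterol regulatory element core TCACNCCAC was found in 1 listed gene, Hmgcs1, against 1.24% of all windows and 204 of those 13605 tested genes. The same core ending in T, TCACNCCAT, which was added after the windows had been read, was found in Srebf2 and Msmo1, against 0.764% of all windows and 0.639% of tested genes. The SP1 box GGGCGG was in 23 of 25 listed genes, against 57.3% of tested genes and 35.7% of windows. The E-box CACGTG was in 6 of 25 listed genes, against 10.2% of tested genes and 7.15% of windows. The LXR direct repeat was in 0 listed genes and 0.0152% of windows. The shares per gene are the ones to set beside the listed genes, since a gene can have several windows. These matches describe letters in the windows and are not shown to be bound. Msmo1, Srebf2 and Ebp are printed as members that fell with fasting and hold the NF-Y box, and Hmgcs1 as the member with the sterol element core. They were picked after the matches were known. Their positions are chr15:82147019-82147318 (+ strand) for Srebf2, chrX:8193463-8193762 (- strand) for Ebp, chr8:64733529-64733828 (- strand) for Msmo1 and chr13:119690101-119690400 (+ strand) for Hmgcs1. Each reads 5′ to 3′ on the gene's strand, and capitals mark TCACNCCAC, TCACNCCAT and the NF-Y box, which reads ATTGG where it lies on the other strand.
Srebf2: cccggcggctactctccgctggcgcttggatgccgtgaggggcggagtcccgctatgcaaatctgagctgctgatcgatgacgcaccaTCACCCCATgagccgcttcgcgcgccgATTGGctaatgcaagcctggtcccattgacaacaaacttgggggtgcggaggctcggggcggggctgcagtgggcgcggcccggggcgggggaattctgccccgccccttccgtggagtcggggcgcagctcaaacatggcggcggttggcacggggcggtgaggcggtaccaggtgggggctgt
Ebp: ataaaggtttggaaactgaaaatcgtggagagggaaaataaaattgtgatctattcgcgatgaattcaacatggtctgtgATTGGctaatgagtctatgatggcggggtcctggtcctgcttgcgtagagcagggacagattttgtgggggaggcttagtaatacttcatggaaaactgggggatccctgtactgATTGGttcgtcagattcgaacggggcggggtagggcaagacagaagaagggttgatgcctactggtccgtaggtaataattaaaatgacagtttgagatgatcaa
Msmo1: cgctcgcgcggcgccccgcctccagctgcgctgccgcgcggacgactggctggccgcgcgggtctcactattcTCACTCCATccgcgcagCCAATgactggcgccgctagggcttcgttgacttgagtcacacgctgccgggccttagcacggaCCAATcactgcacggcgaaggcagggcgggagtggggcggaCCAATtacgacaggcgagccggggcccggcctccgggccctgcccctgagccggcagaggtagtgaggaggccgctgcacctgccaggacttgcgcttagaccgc
Hmgcs1: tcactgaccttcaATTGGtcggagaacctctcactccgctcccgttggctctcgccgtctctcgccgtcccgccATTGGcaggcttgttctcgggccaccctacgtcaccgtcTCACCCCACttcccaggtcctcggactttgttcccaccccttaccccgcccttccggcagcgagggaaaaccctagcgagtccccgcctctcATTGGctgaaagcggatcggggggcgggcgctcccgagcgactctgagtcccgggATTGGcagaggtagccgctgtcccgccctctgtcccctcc

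**Figure D1:**
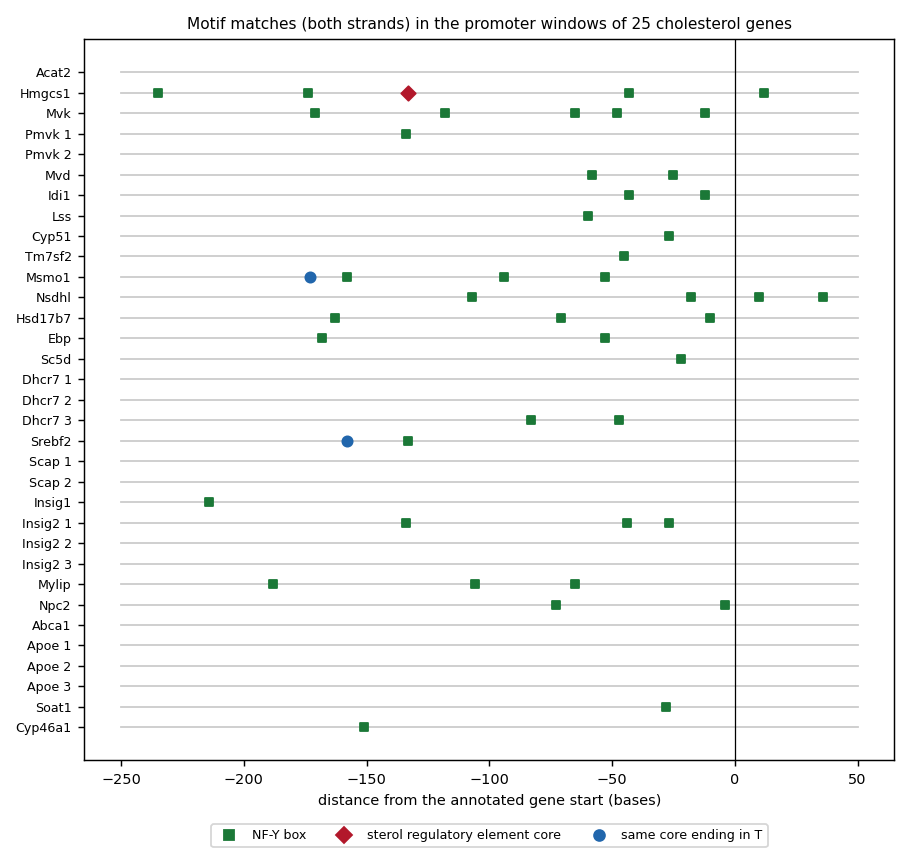
Motif matches in the RefSeq promoter windows of 25 cholesterol genes. Each grey line is a window from 250 bases before to 50 bases after an annotated start (genes with several starts have numbered lines), with distance from the start in bases on the horizontal axis; green squares mark the NF-Y box CCAAT, the red diamond the sterol element core TCACNCCAC in Hmgcs1, and blue circles TCACNCCAT in Srebf2 and Msmo1. Squares are densest shortly before the start, a position that was not counted in the windows of other genes.

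After the fast, genes of cholesterol synthesis, the gene of their transcription factor and a sterol carrier were lower in the hypothalamus, by modest amounts. Averaged over genotypes, 9 of 27 members (33.3%) passed limma's test at an adjusted p under 0.05, and all 9 fell. Over all genes tested, 4.90% passed as lower and 5.14% as higher. The members were listed with earlier results of these data known, so shares of members beside shares of all genes are no test of the list. At an unadjusted p under 0.05, 12 of 27 members were lower, against 12.9% of all genes. The 9 were 7 of 16 synthesis members (Idi1, Fdps, Sqle, Cyp51, Msmo1, Ebp and Dhcr7), 1 of 4 regulation members (Srebf2), 1 of 4 uptake members (Stard4) and 0 of 3 efflux members. Relative to the fed value the changes ran between -21.3% and -12.2%. Fewer cells of a type and less RNA per cell cannot be told apart in bulk tissue. With the number series of the sample titles as a covariate, which is described with those numbers, 0 of the members passed.

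The median fasted minus fed difference of the 16 synthesis members was -0.17 on the log2 scale, against 0.00 over all genes tested, where 9 in 10 genes lay between -0.25 and 0.22. The medians were 0.01 for regulation, 0.00 for uptake and 0.00 for efflux. Of all 27 members, 16 had a difference below 0, against 49.1% of all genes. Every fasted array lay below every fed array for 5 of 27 members (Idi1, Fdps, Sqle, Msmo1 and Stard4), against 1.49% of all genes. The 31 listed genes lie on 16 chromosomes, with at most 3 on one.

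**Figure D2:**
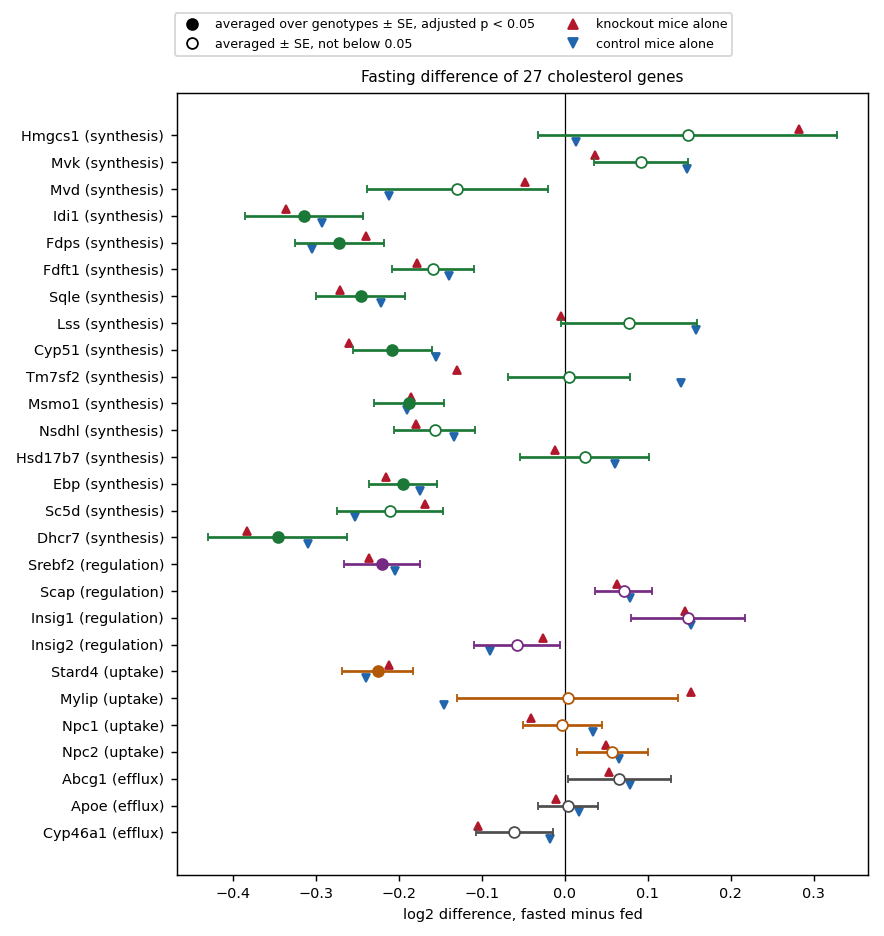
Log2 difference of fasted minus fed mice (horizontal axis) for 27 cholesterol genes (vertical axis, by step). Circles show the difference averaged over genotypes with its SE, filled where the adjusted p was under 0.05; red triangles show knockout mice alone and blue triangles control mice alone. The 9 filled circles all lie left of 0, between -0.35 (Dhcr7) and -0.19 (Msmo1).

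The early enzymes of the pathway make isoprenoid units from acetyl-CoA. Hmgcs1, the synthase that forms HMG-CoA, is represented by a single probe set near background, with 4.44 to 5.72 (median 4.60) on the 6 fasted arrays and 4.34 to 4.97 (median 4.685) on the 8 fed arrays. Probe sets without a target had a median of 3.64, so Hmgcs1 is poorly measured here, and its fasting difference was 0.15 ± 0.18 (log2, SE; limma adjusted p = 0.657). The mevalonate kinase Mvk had 6.51 to 6.78 (median 6.625) on the 6 fasted arrays and 6.32 to 6.77 (median 6.56) on the 8 fed arrays, with a difference of 0.09 ± 0.06 (limma adjusted p = 0.337). Mvd, the decarboxylase that follows, had a difference of -0.13 ± 0.11 (limma adjusted p = 0.499), with array values spread between 6.16 and 7.06. None of these passed the test.

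Idi1, the isomerase that supplies both isoprenoid building blocks, fell. Its log2 values were 9.62, 9.25 and 9.53 in fasted knockout arrays, against 9.80, 9.87, 9.80 and 9.74 in fed knockout arrays. Fasted control arrays had 9.69, 9.65 and 9.28, against 9.87, 9.79, 9.89 and 9.78 in fed control arrays. All 6 fasted arrays lay below all 8 fed arrays, and the lowest were knockout fasted replicate 2 and control fasted replicate 3. The averaged difference was -0.31 ± 0.07 (SE; limma adjusted p = 0.0155), a change of -19.6% against the fed value, with a 95% interval of -0.47 to -0.16 on the log2 scale. Fdps, which joins the units into farnesyl diphosphate, the branch point to sterols and protein prenylation, was also lower. Fdps values were 9.34, 9.25 and 9.14 in fasted knockout arrays, against 9.36, 9.61, 9.52 and 9.44 in fed knockout arrays. Among controls, the values were 9.34, 9.18 and 9.09 in fasted and 9.51, 9.50, 9.57 and 9.45 in fed arrays. The groups did not overlap, although the highest fasted values of 9.34 came close to knockout fed replicate 1 at 9.36. The difference was -0.27 ± 0.05 (SE; limma adjusted p = 0.00709).

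The next enzymes commit farnesyl diphosphate to sterols. Fdft1, squalene synthase, did not pass. Its values were 10.31, 10.22 and 10.12 in fasted knockout arrays, against 10.40, 10.47, 10.40 and 10.31 in fed knockout arrays. Control arrays had 10.33, 10.12 and 10.10 when fasted, against 10.34, 10.23, 10.36 and 10.36 when fed. Fasted and fed ranges met or overlapped in both genotypes. The difference of Fdft1 was -0.16 ± 0.05 (log2, SE; limma adjusted p = 0.0577). Sqle, squalene epoxidase, which is held to be rate-limiting in this arm, fell. Sqle values were 9.79, 9.51 and 9.73 in fasted knockout arrays, against 9.92, 9.97, 9.96 and 9.94 in fed knockout arrays. Fasted control arrays had 9.77, 9.74 and 9.54, against 9.88, 9.81, 10.00 and 9.93 in fed control arrays. The groups did not overlap, and knockout fasted replicate 2 and control fasted replicate 3 were again lowest. The difference was -0.25 ± 0.05 (limma adjusted p = 0.0126). Lss, which closes the squalene chain into lanosterol, had 7.51 to 7.96 (median 7.56) on the 6 fasted arrays and 7.32 to 7.73 (median 7.63) on the 8 fed arrays, and its difference was 0.08 ± 0.08 (limma adjusted p = 0.603).

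Lanosterol is trimmed to cholesterol by demethylases, reductases and isomerases. Cyp51, the lanosterol demethylase, fell. Its values were 8.96, 8.74 and 8.90 in fasted knockout arrays, against 9.15, 9.12, 9.12 and 9.12 in fed knockout arrays. Among controls, the values were 9.05, 9.04 and 8.85 in fasted and 9.03, 9.16, 9.19 and 9.16 in fed arrays. The knockout groups did not overlap, while control fed replicate 1 at 9.03 lay among the fasted controls. Cyp51 fell by 0.21 ± 0.05 on the log2 scale (SE; limma adjusted p = 0.016). Msmo1, the methylsterol monooxygenase, fell as well. Msmo1 values were 10.48, 10.43 and 10.47 in fasted knockout arrays, against 10.69, 10.71, 10.61 and 10.57 in fed knockout arrays. Control arrays had 10.55, 10.47 and 10.33 when fasted, against 10.66, 10.61, 10.70 and 10.59 when fed. Fasted and fed arrays did not overlap, with the highest fasted array at 10.55 and the lowest fed array at 10.57. Msmo1 fell by 0.19 ± 0.04 (log2, SE; limma adjusted p = 0.0155). The second Msmo1 probe set, at a mean of 4.03, differed by 0.06.

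Ebp, the sterol isomerase, was lower too. It stood at 7.79, 7.71 and 7.92 in fasted knockout arrays, against 8.03, 7.95, 8.08 and 8.03 in fed knockout arrays. Fasted control arrays had 7.86, 7.96 and 7.85, against 8.08, 8.10, 8.06 and 8.02 in fed control arrays. Within each genotype the fasted and fed arrays did not overlap, and across genotypes they overlapped by 1 array on each side. The difference was -0.20 ± 0.04 (log2, SE; limma adjusted p = 0.0105). Dhcr7, the reductase of the last step to cholesterol in the Kandutsch-Russell route, had the largest decrease of the members. Dhcr7 values were 7.61, 7.21 and 7.31 in fasted knockout arrays, against 7.85, 7.64, 7.87 and 7.68 in fed knockout arrays. Among controls, the values were 7.62, 7.44 and 7.36 in fasted and 7.68, 7.60, 7.79 and 8.06 in fed arrays. The knockout groups did not overlap, and in controls 1 fed array at 7.60 lay below the highest fasted array at 7.62. Dhcr7 fell by 0.35 ± 0.08 on the log2 scale (SE; limma adjusted p = 0.0207), a change of -21.3%. The Dhcr7 call was lost without control fasted replicate 3 (adjusted p = 0.0527) or without knockout fasted replicate 2 (adjusted p = 0.0602), which were the fasted arrays with low values in most called members.

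Sc5d, the sterol desaturase before Dhcr7, did not pass. Sc5d values were 9.51, 9.38 and 9.54 in fasted knockout arrays, against 9.71, 9.72, 9.71 and 9.44 in fed knockout arrays. Control arrays had 9.28, 9.51 and 9.22 when fasted, against 9.49, 9.54, 9.74 and 9.59 when fed. Its fasted and fed ranges overlapped in both genotypes, and the difference was -0.21 ± 0.06 (log2, SE; limma adjusted p = 0.0538). Nsdhl, the dehydrogenase of the demethylation steps, had -0.16 ± 0.05 (limma adjusted p = 0.0589), with 8.43 to 8.68 (median 8.615) on the 6 fasted arrays and 8.64 to 8.90 (median 8.735) on the 8 fed arrays. Fdft1, Sc5d and Nsdhl all passed when the 40% of genes with the lowest mean were left out, or with a trended and robust prior variance, which gave 12 called members each. The reductase Tm7sf2 differed by 0.01 ± 0.07 (adjusted p = 0.976) and the ketosteroid reductase Hsd17b7 by 0.02 ± 0.08 (adjusted p = 0.884).

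**Figure D3:**
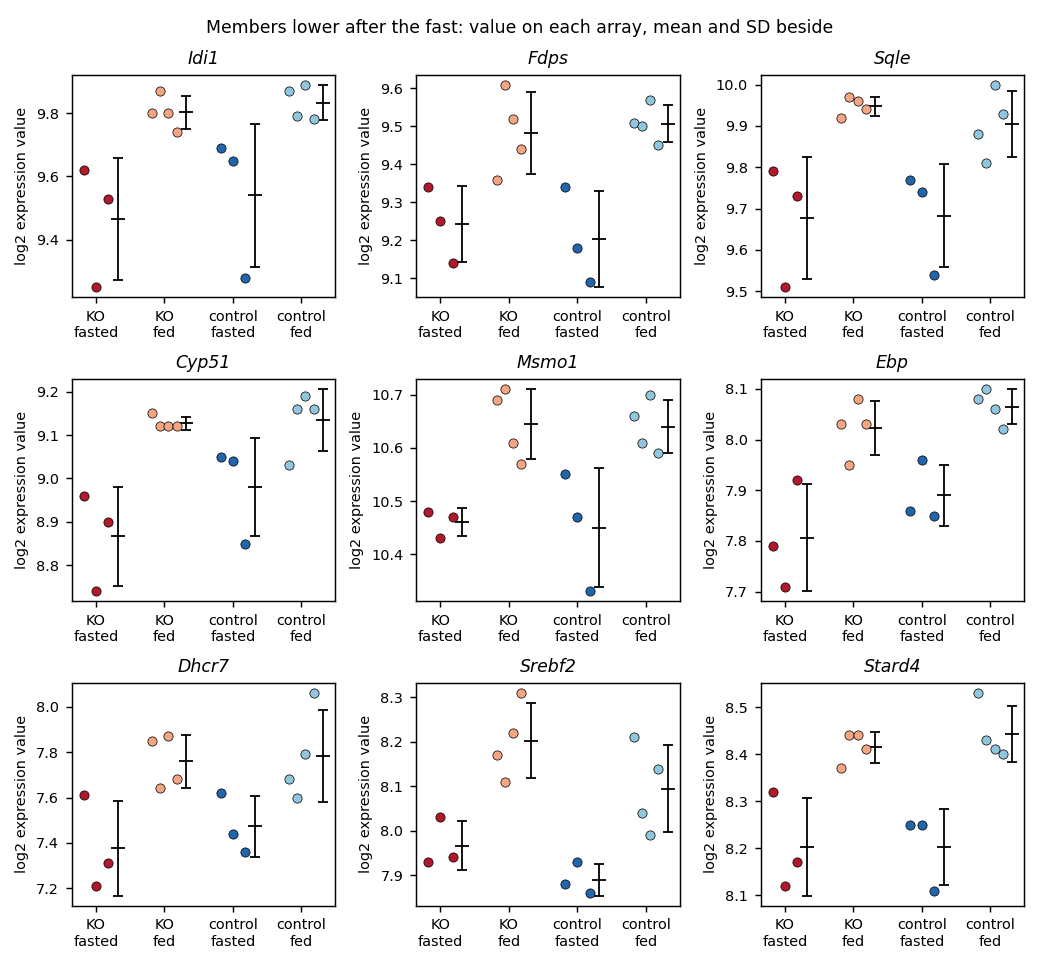
Log2 expression values (vertical axes) on each array for the 9 members that were lower after the fast, with 1 panel per gene. Points are arrays of the 4 groups named on the horizontal axis (KO, knockout), and the bar beside each group shows its mean and SD; Idi1 shows 6 fasted arrays at or below 9.69 and 8 fed arrays at or above 9.74.

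Among the regulators, Srebf2 fell and the others did not pass. Srebf2 values were 7.93, 8.03 and 7.94 in fasted knockout arrays, against 8.17, 8.11, 8.22 and 8.31 in fed knockout arrays. Fasted control arrays had 7.88, 7.93 and 7.86, against 8.21, 8.04, 7.99 and 8.14 in fed control arrays. Within each genotype no fasted array reached a fed array, while knockout fasted replicate 2 at 8.03 lay above control fed replicate 3 at 7.99. The difference was -0.22 ± 0.05 (log2, SE; limma adjusted p = 0.00953), a change of -14.2% against the fed value. Its second probe set differed by -0.32.

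Insig1, an SREBP2 target in cultured cells whose product retains the Scap complex, did not pass the test. Its values were 8.52 to 8.91 (median 8.75) on the 6 fasted arrays and 8.41 to 8.76 (median 8.60) on the 8 fed arrays. The difference was 0.15 ± 0.07 (log2, SE; limma adjusted p = 0.192, unadjusted p = 0.0499). Once the number series entered the fit, Insig1 had the opposite sign, at -0.09 ± 0.13, and knockout fed replicate 1 at 8.76 was the highest fed array. Insig2 is the related retention protein. Insig2 values were 10.04, 9.81 and 10.02 in fasted knockout arrays, against 9.99, 10.04, 9.90 and 10.00 in fed knockout arrays. Among controls, the values were 9.96, 9.99 and 9.75 in fasted and 9.93, 9.96, 10.01 and 10.06 in fed arrays. The groups overlapped in both genotypes, and knockout fasted replicate 2 and control fasted replicate 3 were the lowest arrays. Its difference was -0.06 ± 0.05 (limma adjusted p = 0.526). Scap differed by 0.07 ± 0.03 (limma adjusted p = 0.216), with 9.32 to 9.42 (median 9.40) on the 6 fasted arrays and 9.24 to 9.40 (median 9.30) on the 8 fed arrays.

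Of the uptake and delivery genes, Stard4, a carrier that moves sterols between membranes in the cytosol, fell. Stard4 values were 8.32, 8.12 and 8.17 in fasted knockout arrays, against 8.37, 8.44, 8.44 and 8.41 in fed knockout arrays. Control arrays had 8.25, 8.25 and 8.11 when fasted, against 8.53, 8.43, 8.41 and 8.40 when fed. All fasted arrays lay below all fed arrays, with the highest fasted array at 8.32 and the lowest fed array at 8.37. The difference was -0.23 ± 0.04 (log2, SE; limma adjusted p = 0.00606), the smallest adjusted p among the members. Its other probe sets gave -0.34 and -0.48. Mylip encodes a ubiquitin ligase that sends lipoprotein receptors to degradation, and it had 0.00 ± 0.13 (limma adjusted p = 0.991). Mylip was the widest-spread member of this step, with control fasted values of 8.08, 8.36 and 7.28.

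Npc1 and Npc2 hand cholesterol out of the lysosome. Npc1 had 8.03 to 8.18 (median 8.125) on the 6 fasted arrays and 7.96 to 8.27 (median 8.11) on the 8 fed arrays, and its difference was -0.00 ± 0.05 (log2, SE; limma adjusted p = 0.975). Npc2 values were 10.68, 10.81 and 10.84 in fasted knockout arrays, against 10.69, 10.74, 10.65 and 10.83 in fed knockout arrays. Fasted control arrays had 10.70, 10.81 and 10.77, against 10.74, 10.74, 10.67 and 10.63 in fed control arrays. Fasted and fed Npc2 ranges overlapped, and the difference was 0.06 ± 0.04 with a 95% interval of -0.03 to 0.15 (limma adjusted p = 0.435).

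No efflux member passed the test. Apoe encodes the main lipoprotein component made by astrocytes. Apoe values were 12.24, 12.33 and 12.29 in fasted knockout arrays, against 12.36, 12.26, 12.23 and 12.34 in fed knockout arrays. Among controls, the values were 12.32, 12.23 and 12.23 in fasted and 12.22, 12.29, 12.21 and 12.25 in fed arrays. The groups overlapped throughout, and the fasting difference was 0.00 ± 0.04 on the log2 scale with a 95% interval of -0.07 to 0.08 (limma adjusted p = 0.968). Cyp46a1 is the neuronal hydroxylase that turns cholesterol into a form able to leave the brain. Cyp46a1 values were 9.94, 10.15 and 9.98 in fasted knockout arrays, against 10.21, 10.08, 10.12 and 10.10 in fed knockout arrays. Control arrays had 10.13, 10.02 and 10.17 when fasted, against 10.22, 10.07, 10.15 and 10.06 when fed. Fasted and fed arrays overlapped in both genotypes, with a difference of -0.06 ± 0.05 (limma adjusted p = 0.445). Abcg1, which exports cholesterol to lipoproteins, differed by 0.07 ± 0.06 (limma adjusted p = 0.549), with 9.35 to 9.73 (median 9.54) on the 6 fasted arrays and 9.42 to 9.57 (median 9.49) on the 8 fed arrays. Its second probe set gave 0.32, and with the mean of all probe sets per gene Abcg1 passed as higher, at 0.19 ± 0.04 (limma adjusted p = 0.00798).

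Probe sets could be compared for 12 members, while 15 had a single one. The 2 Idi1 probe sets gave -0.31 and -0.22, and the 3 of Sc5d gave -0.21, -0.29 and -0.28. For Cyp51 they gave -0.21, -0.42 and -0.05, the third at a mean level of 4.76. With the mean of probe sets per gene 9 members passed, of which 7 were among the 9 above. Cyp51 (adjusted p = 0.0534) and Msmo1 (adjusted p = 0.68) were then lost.

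The spread within groups was shared among some of the members. After group means were removed, the mean pairwise Pearson's r over 14 arrays was 0.31 among the 9 called members and 0.27 among the 16 synthesis members. It was 0.13 over all members, -0.18 among the 3 efflux members and 0.00 over all genes. Each called member was also set against the mean of the other called members. There r was 0.95 for Idi1 and 0.88 for Sqle, but 0.19 for Ebp and -0.24 for Srebf2, with the other called members between Sqle and Ebp. For members that were not called, r with the mean of the 9 ran between -0.51 for Cyp46a1 and 0.78 for Insig2. Arrays may share extraction or hybridisation runs, which the labels do not give. Averaged over the 9 called members, each centred on its mean, knockout fasted replicate 2 stood at -0.25 and control fasted replicate 3 at -0.24, below knockout fasted replicate 1 at -0.07 and control fasted replicate 1 at -0.05. Fed arrays lay between 0.06 and 0.13. The 9 were picked as lower in these same fasted arrays, so the gap between fasted and fed scores follows from that choice. The synthesis score over all 16 members ran between -0.19 and 0.06 in fasted arrays and between -0.08 and 0.10 in fed arrays, so it overlapped.

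**Figure D4:**
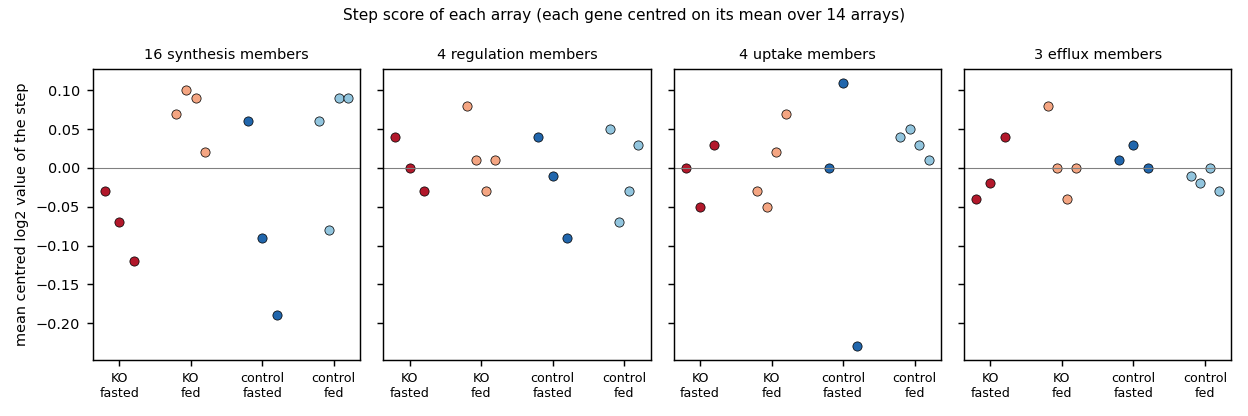
Mean log2 value of each step on each array (vertical axis), with every gene centred on its mean over 14 arrays, for the 4 steps. Points are arrays of the 4 groups on the horizontal axis (KO, knockout). Synthesis scores lie between -0.19 and 0.06 in fasted arrays and between -0.08 and 0.10 in fed arrays, and efflux scores overlap between -0.04 and 0.08.

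Fasting was also read within each genotype. In knockout mice 0 of 27 members passed limma's test, against 0.696% of all genes, and 11 had an unadjusted p under 0.05 in the lower direction, against 7.45% of all genes. Fasted knockout arrays lay below all fed knockout arrays for 9 of 27 members (33.3%), against 5.64% of all genes. They were the 9 members called on average, a call that used these same arrays. In control mice 1 of 27 members passed, against 2.76% of all genes. At an unadjusted p under 0.05, 10 members were lower, against 8.99% of all genes. The member that passed was Fdps, at -0.30 ± 0.08 (log2, SE; limma adjusted p = 0.0488), and leaving out single arrays gave between 0 and 2 members. Without overlap, 7 members were lower in fasted controls, against 8.57% of all genes, and Tm7sf2 was higher, against 7.94%.

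The fasting differences of both genotypes stood side by side as follows, on the log2 scale. Idi1 had -0.34 in knockout and -0.29 in control mice, and Dhcr7 had -0.38 in knockout and -0.31 in control mice. Cyp51 had -0.26 in knockout and -0.155 in control mice, and Stard4 -0.21 in knockout and -0.24 in control mice. Srebf2 had -0.24 in knockout and -0.205 in control mice. The differences had the same sign in both genotypes for 21 of 27 members (77.8%), against 68.6% of all genes, and both were below 0 for 15 (55.6%), against 33.7%.

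The test of the difference in fasting response between genotypes found 0 members and 0 of 17097 genes with limma at an adjusted p under 0.05. At an unadjusted p under 0.05 it gave 0 members and 653 genes (3.82%). The member values ran between -0.27 for Tm7sf2 and 0.30 for Mylip. Tm7sf2 had 7.96, 8.02 and 7.54 in fasted knockout arrays, against 7.95, 8.06, 8.10 and 7.77 in fed knockout arrays. In controls it was 8.07, 7.96 and 7.94 in fasted arrays, against 7.84, 7.82, 7.89 and 7.85 in fed arrays. Knockout fasted replicate 3 at 7.54 stood below all other arrays. The 95% interval was -0.59 to 0.05 for Tm7sf2, and intervals of this width do not show equal responses.

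No member was called between knockout and control mice in either feeding state. Averaged over feeding states, 0 of 27 members passed limma's test, against 0.00585% of all genes, and 0 members had an unadjusted p under 0.05, against 4.65% of all genes. The knockout minus control differences ran between -0.09 for Insig1 and 0.13 for Hmgcs1, with a median of 0.01. Srebf2 had the lowest unadjusted p of the members, 0.0635, at 0.09 ± 0.05 (log2, SE; limma adjusted p = 0.999). Within fed mice 0 members passed and 1 had an unadjusted p under 0.05, against 4.62% of all genes, and within fasted mice 0 members passed and 0 had an unadjusted p under 0.05, against 3.86%. In fasted mice the differences ran between -0.15 for Tm7sf2 and 0.27 for Hmgcs1, and in fed mice between -0.17 for Mylip and 0.16 for Mvk. Hmgcs1 lay near background, and its highest array was knockout fasted replicate 2 at 5.72. For Mvk in fed mice, values were 6.58, 6.77, 6.54 and 6.59 in knockout arrays and 6.46, 6.32, 6.47 and 6.59 in control arrays, which overlapped (limma, unadjusted p = 0.0499, adjusted p = 0.995).

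**Figure D5:**
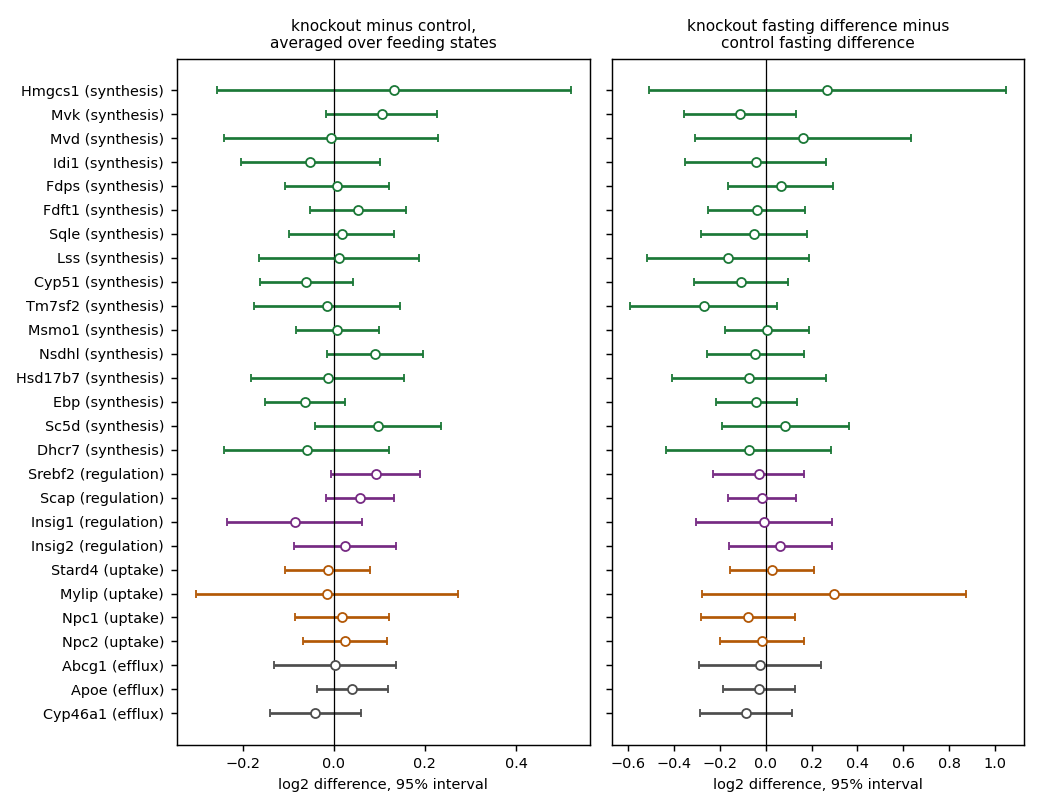
Log2 differences of 27 cholesterol genes (vertical axis) with their 95% intervals (horizontal axis). The left panel shows knockout minus control averaged over feeding states, between -0.09 (Insig1) and 0.13 (Hmgcs1), and the right panel the fasting difference in knockout mice minus that in control mice, between -0.27 (Tm7sf2) and 0.30 (Mylip).

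The numbers in the sample titles fall into a low and a high series, and what they mark is not stated. The low series held 7 arrays, namely the 6 fasted arrays and knockout fed replicate 1. The other 7 fed arrays made up the high series. Knockout fed replicate 1 lay above every fasted array for all 9 called members. It was itself among the fed arrays when these were called, although the same 9 passed without it. It also lay above every fasted array for Fdft1, Nsdhl, Sc5d, Apoe and Cyp46a1, which were not called. No share over all genes was computed, so this position is not a test of the series. Among the 9 called members, the array lay within the range of the other fed arrays for 7, and below that range for Fdps and Stard4. With the series as a covariate no member passed, and 15 of all genes did. The fasting difference then rests on this 1 fed array, and why the calls were lost was not tested. The 9 members kept their sign, between -0.45 and -0.13, with SEs between 0.09 and 0.18, unadjusted p between 0.0221 and 0.254 and a smallest adjusted p of 0.365 (limma). With the series Fdps stood at -0.13, against -0.27 without it, and Stard4 at -0.17 against -0.23. Idi1, Sqle and Srebf2 also moved toward 0, by less, and Cyp51, Msmo1, Ebp and Dhcr7 moved further from 0. Series and feeding cannot be told apart for the other arrays.

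Cell type markers moved with the fast beside the members. Of 9 measured oligodendrocyte markers 3 were lower (Opalin, Ugt8a and Ermn) and 2 higher (Mobp and Cldn11), and their score (the mean of centred log2 values) ran between -0.32 and 0.08 in fasted arrays and between -0.01 and 0.18 in fed arrays. Of 6 microglial markers 4 were lower, with scores between -0.49 and 0.06 in fasted arrays and between 0.06 and 0.32 in fed arrays. Of 8 astrocyte markers 4 were higher and 1 lower, with scores between -0.01 and 0.23 in fasted arrays and between -0.17 and -0.06 in fed arrays. None of 6 neuronal or 5 endothelial markers passed. The part of these markers in the members' decrease was not tested. Choroid plexus scores ranged between -1.78 and 1.01 in fasted arrays and between -1.80 and 1.77 in fed arrays, and with this score as a covariate the same 9 members passed. The hypothalamic neuropeptide genes Hcrt, Pmch, Avp and Oxt had mean values between 10.55 and 12.42, Pomc had 7.03, and the regional factor gene Nkx2-1 was low at 4.17. Npy was the only hypothalamic marker called, higher after the fast by 0.78 ± 0.14 (log2, SE; limma adjusted p = 0.00432). Scores of the 7 measured hypothalamic markers ran between -0.00 and 0.28 in fasted and between -0.79 and 0.20 in fed arrays. The lowest was control fed replicate 1, so arrays differed in these markers. Array medians lay between 4.98 and 5.05.

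Genes around the members gave a wider view. Of 58 further genes of sterol metabolism 46 were measured, of which 5 were higher and 2 lower after the fast (limma, adjusted p under 0.05), with a median of 0.01, and 0 passed for genotype. Over all genes tested 5.14% were higher and 4.90% lower, and nothing is read from these counts about the lists. With the number series as a covariate, Mbtps1 stood at 0.07, Lbr at 0.14, Abca2 at 0.18 and Lipa at -0.11, while Apod stood at 0.57, Erlin2 at 0.27 and Vldlr at -0.28. In SREBP processing and sterol-regulated degradation, Mbtps1 and Erlin2 were the genes called of 6 measured. Mbtps1, the protease that makes the first cut of SREBP, had 9.00 to 9.14 in fasted arrays and 8.77 to 8.94 in fed arrays, a difference of 0.16 ± 0.04 (log2, SE; adjusted p = 0.0209). Erlin2, which takes part in degradation at the endoplasmic reticulum, had 8.67 to 8.92 in fasted arrays and 8.42 to 8.66 in fed arrays, a difference of 0.22 ± 0.05 (adjusted p = 0.0207). In neither gene did the groups overlap. Over all genes tested, 1.92% were higher in fasted arrays without overlap.

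In lipoprotein uptake and the lysosome the genes called, of 8 measured, were the receptor gene Vldlr, which fell by 0.19 ± 0.05 (log2, SE; limma adjusted p = 0.0229) and Lipa, the lysosomal acid lipase that frees cholesterol from its esters, which fell by 0.31 ± 0.09 (limma adjusted p = 0.0419). Among 8 measured genes of efflux, LXR and brain lipoproteins, Apod and Abca2 were called, both higher. Apod, an apolipoprotein made by glia, had 11.92 to 12.17 in fasted arrays and 11.35 to 11.72 in fed arrays, a difference of 0.59 ± 0.06 (limma adjusted p = 0.000121). Abca2, an ABC transporter abundant in oligodendrocytes, had 7.87 to 8.15 in fasted arrays and 7.54 to 7.80 in fed arrays, a difference of 0.33 ± 0.06 (limma adjusted p = 0.00456). Neither overlapped between fasted and fed arrays, while Vldlr and Lipa did. Of 9 measured genes of isoprenoid branches and side reactions 1 passed, the sterol reductase gene Lbr at 0.26 ± 0.08 (limma adjusted p = 0.0499). Its fasted and fed arrays overlapped. None of 9 sterol transport genes and 6 genes of esters and oxysterols passed.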

How the data were processed

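Hypothalamic RNA (150 ng) was hybridised to Affymetrix arrays. The authors deposited log2 expression values. RMA and affy are named, without versions, in the submitters' processing notes. RMA corrects background, equalises the arrays' distributions and summarises probe sets, which compresses differences of dim ones. No source used here gives a genome build for the array values. The promoter windows are on GRCm38.p6. Values were used as deposited. Of 45141 probe sets, 28898 named 1 gene, 551 several and 15692 none in the platform annotation, and 99.3% of gene IDs matched RefSeq. The probe set with the highest mean stood for each of 17097 genes.

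Differences were fitted with limma 3.58.1 (R 4.3.3) over all genes, with 1 coefficient per group, empirical Bayes variances (10 residual and 3.27 prior degrees of freedom) and two-sided p-values adjusted by Benjamini-Hochberg over all genes. The fit was tested on simulated data with independent noise. The differences added there were larger than those of the called members, so differences of their size were not covered. Tables and figures used Python 3.11.15. The number of arrays limits the precision. At most 2.9% of values were identical between any 2 arrays, so no array was a copy of another. Each was counted as 1 sample, although this does not show that they came from different mice.

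The members and lists were chosen with earlier results of these data known. Values per array are given for called members and for the 6 others with the highest means, at least 1 per step; of other pathway genes, those called are named. Other values were chosen after they were seen. Alternatives were a filter on low means, the mean of probe sets, a trended and robust prior, only the groups compared, the number series, median centring, each array left out, and a choroid plexus covariate.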

Additional observations from a re-analysis of the deposited data

Results flagged for a closer look

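In each group of 4 arrays, the highest and the lowest value of every member were set against the range of the group with Dixon's test. Of 54 such groups 4 held an array that the test marked, and chance alone marks about 1 in 20 groups. The test compares a gap with the range of its group, so a marked gap can be small. Sc5d was lowest in knockout fed replicate 4, at 9.44, with the next array at 9.71, and its adjusted p without that array was 0.0224 (limma). Cyp51 was highest in knockout fed replicate 1, at 9.15, while the other 3 knockout fed arrays had 9.12, a small gap that was marked because those 3 values were equal. Fdft1 was lowest in control fed replicate 2, at 10.23, with the next array at 10.34. Mylip was lowest in control fed replicate 4, at 7.96, with the next array at 8.08.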

How the results depend on the processing

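For fasted minus fed averaged over genotypes, the count of 9 called members became 0 with the number series as a covariate. It was 12 without the low 40% of genes and with a trended and robust prior, 9 with the mean of probe sets, with arrays centred on their median and with the choroid plexus score (chosen after seeing the data), and between 8 and 11 when single arrays were left out. In control mice the count of 1 became 2 without the low 40% of genes, 2 with the mean of probe sets, 3 with the trended and robust prior, 0 with only the groups compared, 0 with the number series, 0 with median centring and 2 with the choroid plexus score, and it ran between 0 and 2 when single arrays were left out. In knockout mice the count of 0 became 1 with the mean of probe sets and 2 with the trended and robust prior, and ran between 0 and 1 when single arrays were left out; the 1 came without knockout fasted replicate 3. With the number series the medians were -0.0804 for regulation and -0.0696 for efflux (log2). Idi1, Fdps, Sqle, Ebp, Srebf2 and Stard4 passed in 19 of 20 alternatives, all but the number series. The sterol element core was in 0 members in a longer, stricter form and in 3 when TCACNCCAT (added after seeing the data) was counted too. The cause of these changes was not tested. The number series leaves 1 fed array beside the fasted ones. No called difference changed sign under these alternatives. Members that were not called did: with the number series Insig1 stood at -0.09 in place of 0.15 and Abcg1 at -0.02 in place of 0.07, and without knockout fasted replicate 2 Hmgcs1 stood at -0.04 in place of 0.15. Differences near 0 of Mylip, Tm7sf2, Hsd17b7, Npc1 and Apoe also changed sign under some alternatives, and the regulation and efflux medians had been 0.01 and 0.00. No paired analysis was possible because no number recurs between samples, so that arrays cannot be matched across groups. Small differences of dim probe sets such as that of Hmgcs1 are limited by background.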
